A study of Mus musculus with 9 samples.

Results

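A set of 40 genes that build and serve the Golgi apparatus was followed in islets of mice kept on 3 diets. The members were listed by name: 7 golgins, 2 GRASPs, 7 SNAREs and 8 tethers, with 8 TMED cargo receptors and 3 KDEL receptors. A further 5 were grouped as lectin and other cargo receptors. The members were read from a count table of 56941 genes, and all 40 were among the 18548 genes that passed a filter on low counts. Islets are the small groups of endocrine cells in the pancreas, and these came from wild-type male C57BL/6J mice that were 15 weeks old when the diets began and ate them over 9 months. The control diet, low in fat (LFD), contained 10% fat and was represented by 3 libraries, the high fat diet (HFD) 60% fat with 2 libraries, and the ketogenic diet (KD) 89.9% fat with 4 libraries. The series asked how a ketogenic diet alters islet gene expression. The labels number the libraries within a diet and do not say whether each came from its own mouse, so p-values measure the spread between these samples, which may be technical.

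The Golgi is a stack of flattened membranes that receives newly made proteins from the endoplasmic reticulum, modifies them and sorts them for secretion. Golgins and tethers catch arriving vesicles, SNAREs fuse them with the stack, GRASPs hold the stack together, and cargo receptors select proteins for the forward or the return trip. In islet endocrine cells proinsulin and other prohormones pass through it before they are packed into secretory granules, and the acinar cells of the surrounding pancreas send digestive enzymes through the same route.

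Promoters are shown first because part of the set shares a short sequence there. RefSeq promoters (GRCm38.p6) were supplied for 30 of the 40 members, 5 of which had 2 starts, and the 250 bases before each start were searched on both strands. Shares below count genes, a gene holding a motif if any of its windows does. The core of the Golgi apparatus stress response element (GASE), ACGTGGC, was present in 5 of the 30 genes (16.7%), Cog3, Kdelr3, Mcfd2, Tmed3 and Uso1. It was present in 2.33% of all 27025 genes with a promoter and in 3.36% of the 12010 that were also tested for expression. Each line below gives 60 bases 5′ to 3′ on the gene's strand, and capitals mark ACGTGGC or its reverse complement GCCACGT. Coordinates are GRCm38.p6, which is not the build (GRCm39) named for the counts.
Uso1 (chr5:92137859-92137918, plus strand): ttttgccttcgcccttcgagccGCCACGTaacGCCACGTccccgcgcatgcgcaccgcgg
Kdelr3 (chr15:79516348-79516407, plus strand): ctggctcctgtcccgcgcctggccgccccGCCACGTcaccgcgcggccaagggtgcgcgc
Cog3 (chr14:75754583-75754642, minus strand): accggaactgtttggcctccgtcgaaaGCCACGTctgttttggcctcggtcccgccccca
Mcfd2 (chr17:87266106-87266165, minus strand): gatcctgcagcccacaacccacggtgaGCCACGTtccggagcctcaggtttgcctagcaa
Tmed3 (chr9:89705212-89705271, minus strand): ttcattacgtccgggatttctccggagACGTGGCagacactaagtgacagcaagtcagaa

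Uso1 held the core on both sides of a 3-base gap, with the first bases 57 and 47 bases before the start. In Kdelr3 the core began 31 bases before the start and overlapped the core of the unfolded protein response element (UPRE), TGACGTGG. The UPRE core was found in 3.33% of the 30 members, in 0.603% of all genes and in 0.916% of those also tested for expression. The GASE core lay farther out in Cog3, Mcfd2 and Tmed3, beginning 122, 191 and 201 bases before the start. The cAMP response element (CRE), TGACGTCA, was found in Gosr2 alone among the members (3.33%). It was found in 1.77% of all genes and in 2.92% of those also tested. No member's window held the letters of the endoplasmic reticulum stress response element (ERSE), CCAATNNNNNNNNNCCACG, found in 0.13% of all genes, or of ERSE-II, ATTGGNCCACG, found in 0.037%. A match describes the sequence and does not show that a factor binds there.

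For comparison, the last 60 bases before the start are given for the 4 genes that rose on KD (below) and had a supplied promoter. They are in lower case throughout because none of the searched letters occurred in their windows, which says nothing about any factor.
Gorasp1 (chr9:119937559-119937618, minus strand): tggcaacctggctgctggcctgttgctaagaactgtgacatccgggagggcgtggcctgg
Gorasp2 (chr2:70661449-70661508, plus strand): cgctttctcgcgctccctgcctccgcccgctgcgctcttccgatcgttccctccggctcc
Kdelr1 (chr7:45872780-45872839, plus strand): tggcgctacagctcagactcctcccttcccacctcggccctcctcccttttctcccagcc
Tmed10 (chr12:85374718-85374777, minus strand): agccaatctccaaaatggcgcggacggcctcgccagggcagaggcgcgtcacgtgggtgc

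The libraries held 15513502 to 26588390 counts and differed in the markers of other pancreatic cells. Digestive enzyme genes and other acinar markers took 15.2% to 36% of the counts on LFD, 11.4% and 19.1% on HFD, and 61.1%, 45%, 56.8% and 20.6% in KD libraries 1 to 4. None of the 37 acinar markers was at 0 in every library, and 31 of the 34 that could be tested lay above 0 for KD against LFD on the log2 scale. None of these rose in edgeR's test, 19 had an unadjusted p below 0.05 in that direction, and 1, the amylase gene Amy2b, fell. DESeq2 passed 11 as higher and 2 as lower, and limma-voom 4 and 3. The insulin genes, which define beta cells, took 4.77% to 8.02%, 9.54% to 10.6% and 1.44% to 11.1% of the counts on LFD, HFD and KD. All 12 lymphocyte markers fell on KD against LFD in edgeR's test, and their summed level was 67.8 to 1240 CPM (counts per 1000000 counts of a library, scaled as described below) on LFD, 56.7 to 73.7 on HFD and 6.05 to 25.8 on KD. Of the other marker lists, 3 of 7 duct, 1 of 8 macrophage and 1 of 4 delta and PP cell genes fell on KD in the same test. The part of these differences in the results below was not tested, apart from the fits with an acinar or a lymphocyte score. In bulk RNA, fewer cells of a type and less RNA per cell cannot be told apart, and since no label gives an isolation date or a batch, the diets cannot be told apart from batches either.

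CPM values are on library sizes scaled by TMM, a correction that sets most genes level between libraries, and log2 fold changes come from edgeR's quasi-likelihood test with Benjamini-Hochberg adjustment over all 18548 genes at a threshold of 0.05. The choice of scale matters for direction. On library totals without TMM, the median of all genes was -0.59 for KD against LFD, the members' median was -0.28, and 6 of the 40 members lay above 0, while 38 lay above the median gene. Statements of higher and lower on KD are therefore relative to the median gene.

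On the ketogenic diet the set as a whole sat higher than on the control diet. In edgeR the members past the threshold were GRASPs, TMED and KDEL receptors, and Yipf5. Yipf5, a membrane protein of early Golgi transport, was grouped here with the lectin and other cargo receptors. The 6 members that rose were Gorasp1, Gorasp2, Tmed2, Tmed10, Kdelr1 and Yipf5, by 1.42-fold to 1.71-fold, and no member fell, nor had an unadjusted p below 0.05 in that direction. These 6 are 15% of the set, against 0.981% of all genes tested that rose and 3.14% that fell. Of the 40 members, 37 lay above 0, their median was 0.29 on the log2 scale and their range was -0.09 to 0.99, against an all-gene median of -0.02. An unadjusted p below 0.05 in the upward direction was reached by 17 members (42.5%), against 10.8% of all genes. In 18 members (45%) every KD library exceeded every LFD library, against 9.69% of all genes, and in no member was every KD library lower. DESeq2 and limma-voom each passed 12 members, all higher, against 3.66% and 3.42% of all genes that rose in those tests. Both also passed the tether Uso1, and limma-voom the SNARE Ykt6, so the limit to GRASPs and the groups named for receptors held in edgeR only.

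**Figure D1:**
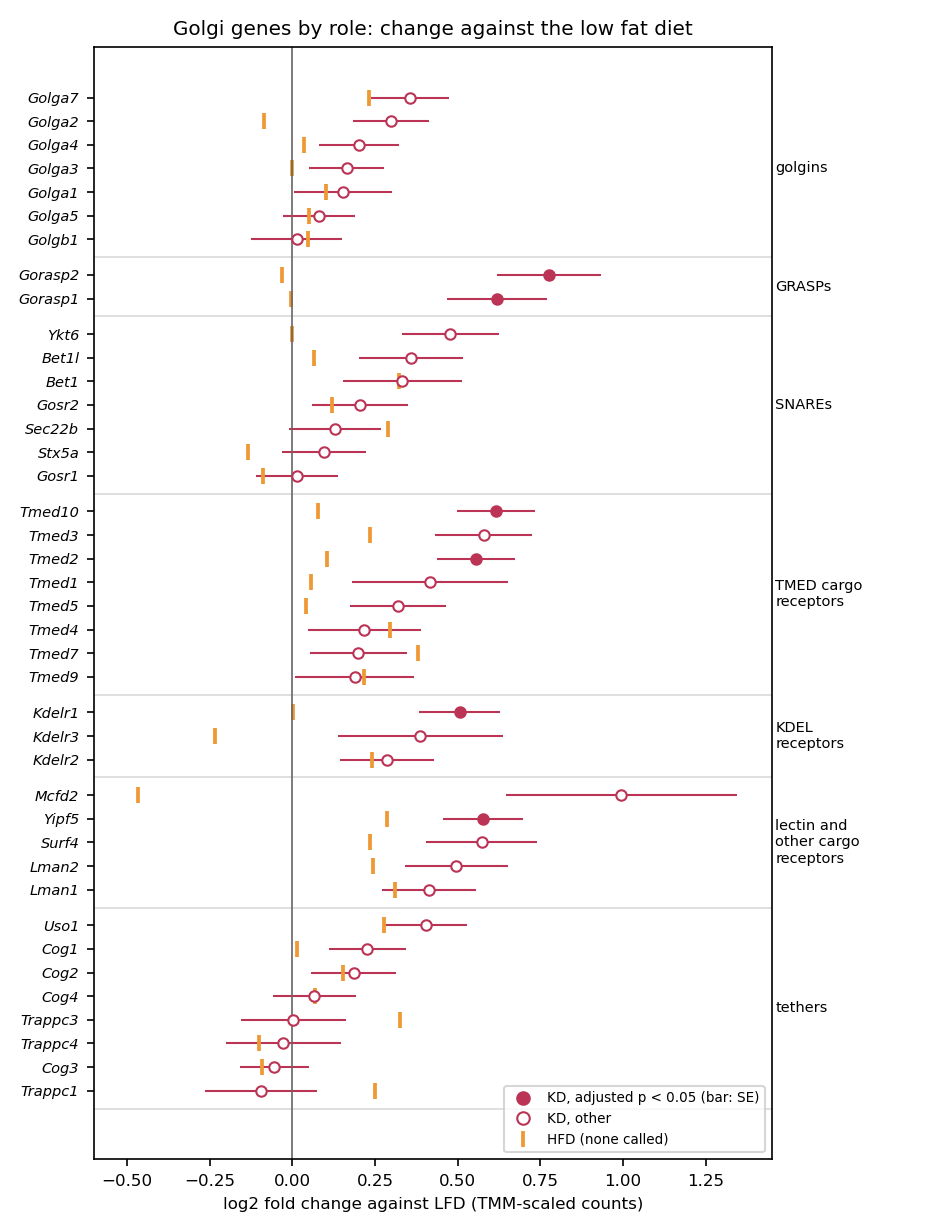
Log2 fold changes of the 40 Golgi genes for KD against LFD, grouped by role, with bars for the standard error and filled points for an adjusted p below 0.05. Short vertical marks give HFD against LFD. The 6 filled points are GRASPs, TMED and KDEL receptors, and Yipf5 in the lectin and other cargo receptor group. The 8 tethers lie between -0.09 and 0.40.

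Summed over the set, the mean level was 3429 ± 168 CPM on LFD (SD, n = 3), 3770 ± 102 on HFD (n = 2) and 4446 ± 172 on KD (n = 4). As a share of all counts, of which the acinar markers took the parts given above, the members held 0.358% to 0.447% on LFD, 0.453% and 0.577% on HFD and 0.238% to 0.545% on KD. As a share of the counts that did not come from acinar markers they held 0.484% to 0.598% on LFD, 0.56% and 0.651% on HFD and 0.612% to 0.686% on KD. Every KD library lay above every LFD library in the first and the last of these measures. In the last, HFD overlapped with both, with 0.56% inside the LFD range and 0.651% inside the KD range. In the share of all counts KD overlapped with both other diets.

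Both GRASPs rose on KD. They are peripheral membrane proteins that link neighbouring Golgi cisternae. Gorasp2 stood at 109, 124 and 93.1 CPM in the LFD libraries, 103 and 109 on HFD, and 193, 164, 226 and 162 on KD. The lowest KD library was above the highest of the other diets, and the LFD and HFD values overlapped. KD exceeded LFD by a log2 fold change of 0.78 (SE 0.16, edgeR adjusted p 0.0243). Gorasp1 was less abundant per kilobase of exon, at 6.22 CPM on LFD against 26.2 for Gorasp2. It stood at 24.2, 29.7 and 23.5 CPM on LFD, 23.3 and 28.1 on HFD, and 46.3, 33.5, 41 and 37.9 on KD. It too was separated from both other diets, with a log2 fold change of 0.62 against LFD (SE 0.15, edgeR adjusted p 0.0443).

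All 8 TMED genes, which encode receptors that cycle between the endoplasmic reticulum and the Golgi, lay above 0 for KD against LFD, with a median of 0.37, and 2 of them rose. Tmed10 stood at 137, 144 and 128 CPM on LFD, 146 and 141 on HFD, and 213, 198, 215 and 209 on KD. The 4 KD libraries lay close together and above the other 5, and LFD and HFD overlapped. KD exceeded LFD by a log2 fold change of 0.62 (SE 0.12), with the lowest edgeR adjusted p in the set, 0.0200. Its partner Tmed2 stood at 114, 124 and 106 CPM on LFD, 124 and 122 on HFD, and 179, 157, 172 and 166 on KD. The groups were separated in the same way, with a log2 fold change of 0.56 (SE 0.12, edgeR adjusted p 0.0282).

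Tmed3 missed the threshold narrowly, with a log2 fold change of 0.58 and an edgeR adjusted p of 0.0503. Tmed1, Tmed3 and Tmed5 were also separated between LFD and KD without passing. Tmed4, Tmed7 and Tmed9 overlapped between those diets, at log2 fold changes of 0.22, 0.20 and 0.19. Per kilobase of exon, Tmed2 and Tmed3 were the most abundant of the family on LFD, at 45.3 and 42.8 CPM per kilobase, and Tmed1 and Tmed5 the least abundant of all 40 members, at 2.43 and 2.82.

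Of the 3 KDEL receptors, which return escaped chaperones to the endoplasmic reticulum, Kdelr1 rose on KD. It stood at 48, 54.9 and 45.1 CPM on LFD, 48 and 50.8 on HFD, and 64.3, 65.1, 76 and 74.8 on KD. No KD library overlapped with another diet, and the log2 fold change against LFD was 0.51 (SE 0.12, edgeR adjusted p 0.0438). Kdelr2, the most abundant of the 3 per kilobase at 66.5 CPM on LFD and 81.1 on KD, had a log2 fold change of 0.29, and Kdelr3 had 0.39, with edgeR adjusted p-values of 0.259 and 0.382. Both overlapped between LFD and KD.

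The 5 genes grouped as lectin and other cargo receptors had a median of 0.57. This was below that of the GRASPs at 0.70 and above those of the other groups, and each gene had an unadjusted p below 0.05 in edgeR. Yipf5, a membrane protein of early Golgi transport whose loss of function in people causes neonatal diabetes, was the one that rose. It stood at 48.7, 47.5 and 40 CPM on LFD, 56.1 and 54.6 on HFD, and 70.5, 67, 72.7 and 60.8 on KD. The 3 diets did not overlap, with HFD in the middle, and KD exceeded LFD by a log2 fold change of 0.58 (SE 0.12, edgeR adjusted p 0.0272).

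The other 4 genes of this group did not pass. Surf4, an export receptor for many soluble secreted proteins, was the most abundant member per kilobase, at 74.8 CPM on LFD, 88.2 on HFD and 111 on KD, with a log2 fold change of 0.57 for KD against LFD (edgeR adjusted p 0.0768). The lectins Lman2 and Lman1, which carry glycoproteins out of the endoplasmic reticulum, had log2 fold changes of 0.50 and 0.41 and edgeR adjusted p-values of 0.0957 and 0.119. All 3 were separated between LFD and KD. Mcfd2, which pairs with Lman1 to export coagulation factors, had the highest log2 fold change of the set, 0.99. Its error was also the widest of the set (SE 0.35, edgeR adjusted p 0.131).

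The values of Mcfd2, chosen for description after they were seen, followed the acinar share of the libraries. It stood at 162, 148 and 82.5 CPM on LFD, 101 and 88.7 on HFD, and 368, 210, 337 and 129 on KD. The KD library with the lowest acinar share, KD 4, lay among the LFD values, and over all 9 libraries Mcfd2 had the order of the acinar share except that LFD 3 and HFD 2 were exchanged. With an acinar score in the edgeR fit its log2 fold change was 0.27 (adjusted p 0.419).

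**Figure D2:**
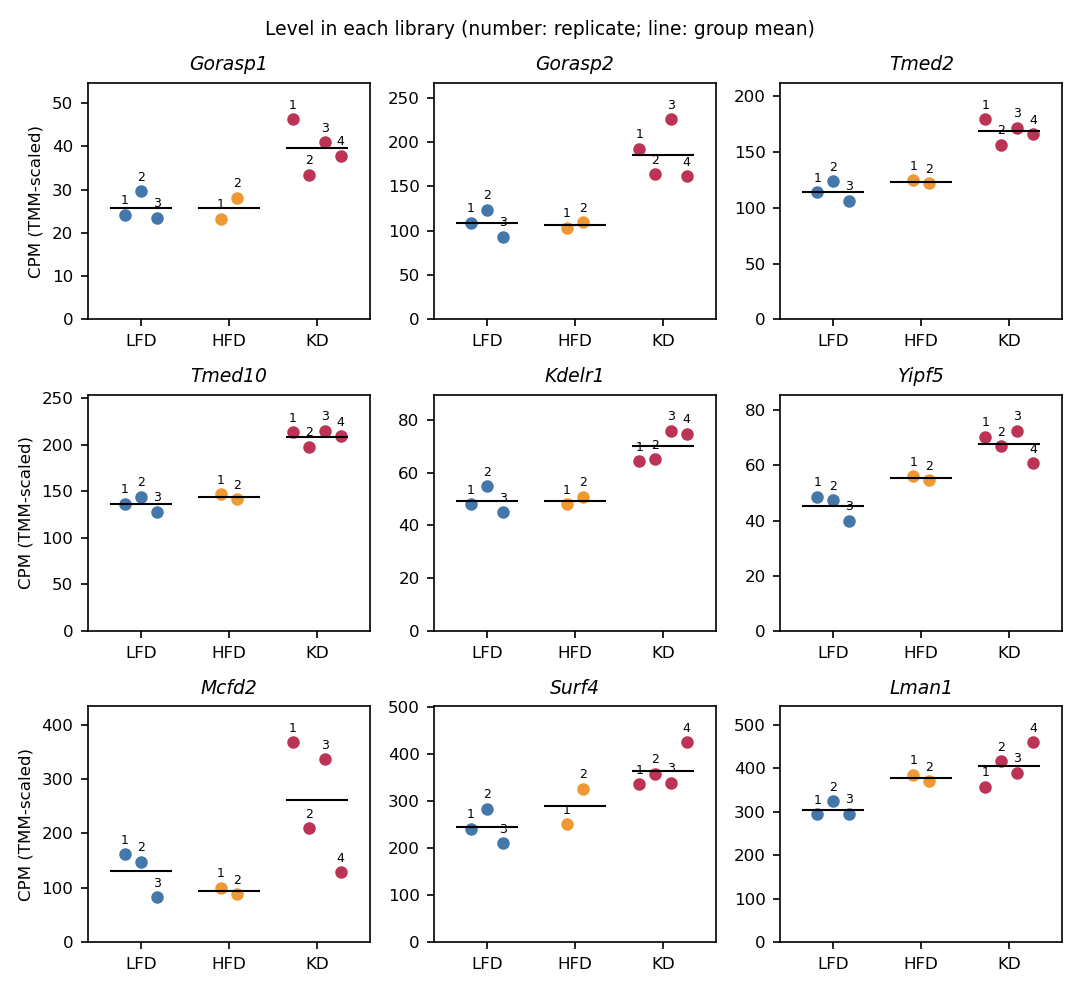
CPM of single Golgi genes in each of the 9 libraries, coloured by diet. Gorasp2, Tmed10 and Kdelr1 show the 4 KD libraries above the other 5, while Mcfd2 runs from 82.5 to 368 CPM with KD 4 among the LFD libraries.

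For KD against LFD no golgin passed in edgeR, DESeq2 or limma-voom, and 2 had an unadjusted p below 0.05 in edgeR. All of them but Golga7 encode long coiled-coil proteins that reach out from the Golgi to catch vesicles. All 7 golgins lay above 0 for KD against LFD, from 0.01 (Golgb1, which encodes giantin) to 0.36 (Golga7), with a median of 0.16. Golga7, a partner of a palmitoyltransferase, had the lowest p of the group and stood at 31.8, 32.5 and 26.7 CPM on LFD, 36.6 and 34.7 on HFD, and 41.4, 37.7, 37.6 and 38.5 on KD. KD lay above both other diets and HFD above LFD, but the edgeR adjusted p for KD against LFD was 0.109 (log2 fold change 0.36, SE 0.12). Golga2, the cis-Golgi golgin that binds Gorasp1, had a log2 fold change of 0.30 and Golga4 of 0.20, both with KD libraries above all LFD and HFD libraries. Golga1, Golga3, Golga5 and Golgb1 overlapped between LFD and KD. The sign of Golgb1 changed under several alternatives.

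The 7 SNAREs, which fuse vesicles arriving at and within the Golgi, likewise lay above 0 with none past the threshold in edgeR, with a median of 0.20. An unadjusted p below 0.05 was reached by 2 (Bet1l and Ykt6), DESeq2 passed none and limma-voom passed Ykt6. Ykt6, a lipid-anchored SNARE, had the lowest p. It stood at 45.9, 51 and 38 CPM on LFD, 42.5 and 47.3 on HFD, and 71, 61.3, 66.4 and 51.9 on KD. The KD libraries lay above the rest, with KD 4 close to LFD 2, and KD differed from LFD by a log2 fold change of 0.48 (SE 0.15, edgeR adjusted p 0.0890). Gosr1, Gosr2, Bet1, Bet1l, Stx5a and Sec22b overlapped between LFD and KD and ranged from 0.01 to 0.36. The sign of Gosr1 and of Stx5a depended on the fit.

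The 8 tethers were the group with the smallest median, 0.04, and the group that held all 3 members below 0. None passed in edgeR, and Uso1 was the one with an unadjusted p below 0.05 and the one passed by DESeq2 and by limma-voom. Uso1, a long tether that links vesicles to the cis-Golgi, was the exception in size. It stood at 192, 203 and 179 CPM on LFD, 232 and 232 on HFD, and 238, 243, 251 and 280 on KD. The LFD libraries lay below all others, and KD differed from LFD by a log2 fold change of 0.40 (SE 0.13, edgeR adjusted p 0.0954). The largest decreases of the set were in Trappc1, a TRAPP core subunit, at -0.09 (SE 0.17, edgeR adjusted p 0.784) and Cog3, a subunit of the COG tethering complex, at -0.05 (SE 0.11, edgeR adjusted p 0.802).

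Trappc1 stood at 14.8, 16 and 14 CPM on LFD, 17.4 and 18.2 on HFD, and 13.1, 12.4, 12.1 and 18.2 on KD, so that KD 4 lay with the HFD libraries and the other 3 below LFD. Cog3 stood at 59.8, 55.4 and 52.6 CPM on LFD, 51.1 and 53.8 on HFD, and 55, 53.7, 54.1 and 52.7 on KD, a range in which the diets overlapped. Trappc3 and Trappc4 were at 0.00 and -0.03, and Cog1, Cog2 and Cog4 at 0.23, 0.19 and 0.07. With an acinar score in the fit, or a lymphocyte score, Trappc1 and Trappc4 lay above 0.

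Among the KD libraries KD 4 stood apart in acinar share, and the Golgi genes did not all follow it. KD 4, with 20.6% acinar counts, lay inside the range of the LFD libraries in that share. It also had the highest insulin share of the 9 libraries, 11.1%, against 4.77% to 8.02% on LFD. It exceeded all 3 LFD libraries in 35 of the 40 members (87.5%), against 29.5% of all genes, and both HFD libraries in 32 (80%), against 34.2%. It was the highest of the KD libraries in 20 members and the lowest in 7, which included Gorasp2, Yipf5, Ykt6 and Mcfd2. The 4 KD libraries followed the order of the acinar share in Golga1, Ykt6, Tmed1, Mcfd2 and Cog3 and the opposite order in 9 members, Surf4, Lman1 and Lman2 among them. No share of all genes is given for these counts within the KD libraries. They describe single members and are not read as a trait of the set.

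**Figure D3:**
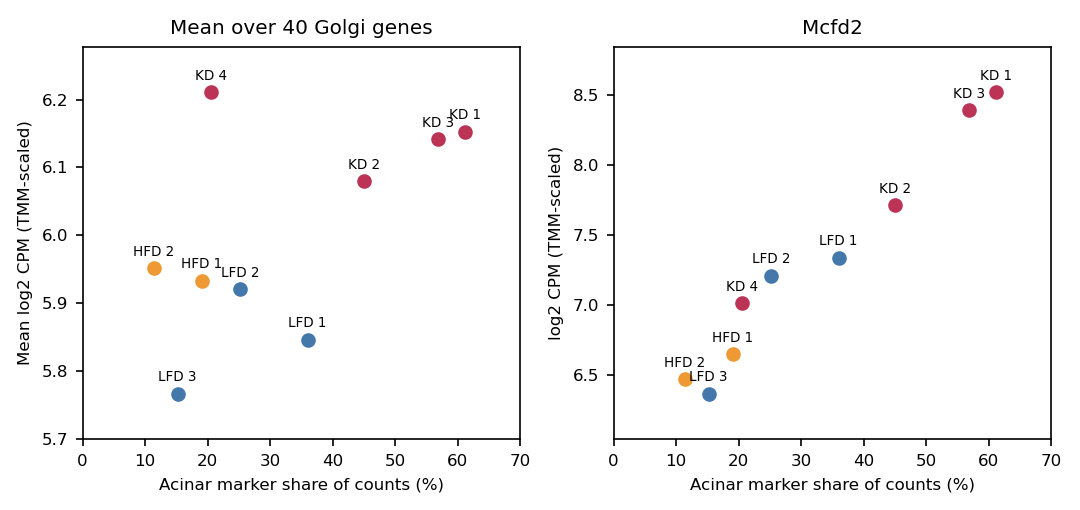
Level of the Golgi genes against the share of counts from acinar markers in each library, with points coloured by diet. The left panel is the mean over the set and the right panel Mcfd2. KD 4 has an acinar share between those of LFD 2 and LFD 3 and the highest insulin share of the 9 libraries, 11.1%. Its mean log2 CPM of the 40 genes is also the highest, 6.21, against 5.77 to 5.92 on LFD.

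A fit with the acinar score as a covariate passed 10 members, all higher on KD: Gorasp2, Tmed2, Tmed3, Tmed4, Tmed10, Kdelr1, Lman1, Lman2, Surf4 and Yipf5. That fit passed 1364 genes in all, against 764 without the covariate, and 2.45% of all genes rose in it. The members' median was 0.30, Tmed4 moved from 0.22 to 0.49, and Gorasp1 no longer passed (0.57, edgeR adjusted p 0.0624). A fit with a lymphocyte score in place of the acinar score passed no gene at all, members included. In that fit 13 members had an unadjusted p below 0.05, all higher on KD, against 2390 of all 18548 genes in either direction. The members' median was 0.41. Lymphocyte markers took 0.00851% to 0.154% of the counts on LFD and 0.000374% to 0.0014% on KD, with no overlap, so that score and the diet cannot be told apart.

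**Figure D4:**
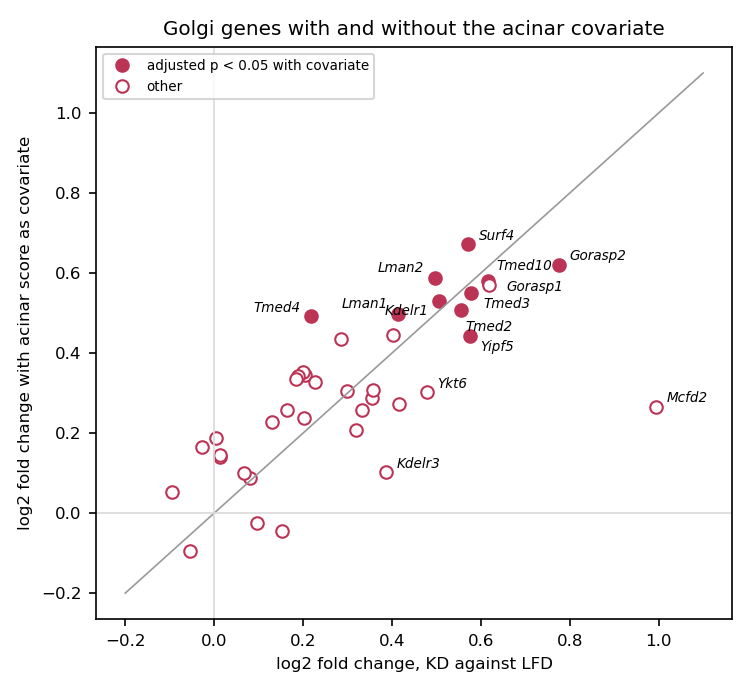
Log2 fold change for KD against LFD of each Golgi gene without (x axis) and with (y axis) the acinar score in the fit, with the line of equality. Filled points have an adjusted p below 0.05 with the score, and Mcfd2 lies farthest below the line, at 0.99 without and 0.27 with it.

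The calls depended on single libraries. Without LFD 1, KD 2 or KD 3 none of the 6 passed, and 177, 199 and 151 of all genes did, against 764 with all libraries. In these 3 omissions 14, 15 and 15 members had an unadjusted p below 0.05, all higher on KD, against 17 with all libraries. Over all genes tested, 3097 of 18245, 3613 of 18361 and 3194 of 18370 had such a p in either direction, against 4215 of 18548 with all libraries. Gorasp2 alone passed without LFD 2, Gorasp2 and Tmed10 without LFD 3, Tmed10 alone without KD 1, and 7 members without KD 4. Without HFD 1 or HFD 2 the same 4 genes passed, Gorasp2, Tmed2, Tmed10 and Yipf5. The 6 log2 fold changes kept their direction: over the 9 omissions Tmed10 ran from 0.57 to 0.66, Gorasp2 from 0.67 to 0.88, Tmed2 from 0.50 to 0.61, Yipf5 from 0.49 to 0.63, Gorasp1 from 0.54 to 0.73 and Kdelr1 from 0.44 to 0.59.

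No member passed edgeR's test for HFD against LFD (0% of all genes passed). DESeq2 and limma-voom passed no member either, with 1.44% and 0.0539% of all genes past the threshold in those tests. In edgeR 1 member (2.5%), Tmed7, had an unadjusted p below 0.05 in the upward direction, against 3.55% of all genes. Tmed7 stood at 99.8, 106 and 118 CPM on LFD and at 149 and 132 on HFD, with a log2 fold change of 0.38 (SE 0.17, edgeR adjusted p 0.499). On KD it stood at 99.4, 127, 123 and 147 CPM and overlapped with both. Of the 40 members, 29 lay above 0, with a median of 0.075, against -0.002 over all genes. Both HFD libraries exceeded all LFD libraries in 9 members (22.5%), against 13.4% of all genes: Golga7, Sec22b, Tmed7, Kdelr2, Lman1, Yipf5, Uso1, Trappc1 and Trappc3. Gorasp1 and Gorasp2 had log2 fold changes of 0.00 and -0.03.

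Set against HFD rather than LFD, the KD libraries again lay higher in part of the set. No member passed edgeR's test (0% of all genes passed), and 8 (20%) had an unadjusted p below 0.05 in the upward direction, against 12.1% of all genes: Golga2, Gorasp1, Gorasp2, Ykt6, Tmed2, Tmed10, Kdelr1 and Mcfd2. DESeq2 passed 7 members, all higher, against 5.58% of all genes that rose in its test, and limma-voom passed no member and no other gene. The smallest edgeR adjusted p of a member was 0.124. KD libraries exceeded both HFD libraries in 16 members (40%), against 15.7% of all genes, and 32 members lay above 0, with a median of 0.145, against -0.04 over all genes. Gorasp2 had a log2 fold change of 0.81 (SE 0.18) and Tmed10 of 0.54 (SE 0.13). On library totals without TMM, 1 member lay above 0 and 36 lay above the median gene, which was at -0.81.

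This comparison shares its KD libraries with the one against LFD, so the 2 are not independent. In 12 members (30%), against 5.96% of all genes, every KD library lay above every LFD and every HFD library: Golga2, Golga4, Golga7, Gorasp1, Gorasp2, Ykt6, Tmed2, Tmed10, Kdelr1, Surf4, Yipf5 and Uso1. In 10 members the KD mean lay between the LFD and HFD means or below both, and 5 of these were tethers (Trappc1, Trappc3, Trappc4, Cog3 and Cog4). For that count no share of all genes is given, so it only describes the members. Omission of KD 4 gave 5 members past the threshold for KD against HFD, all higher (12.5%), where 6.39% of all genes rose.

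Other genes of the pathway were counted beside the members. Of 70 further Golgi genes, 3 rose on KD against LFD, none fell or had an unadjusted p below 0.05 in that direction, 53 (75.7%) lay above 0, and the median was 0.19. The 3 are 4.29% of the list, against the 0.981% of all genes given above, and 48.1% of all genes lay above 0. DESeq2 passed 11 and limma-voom 9, all higher, and edgeR passed 0 without LFD 1, LFD 2, KD 2 or KD 3, 1 without LFD 3, HFD 1, HFD 2 or KD 1, and 6 without KD 4. Cog7, another COG subunit, had a mean of 35.8 ± 0.84 CPM in the 3 LFD libraries (SD) and 55.4 ± 6.89 in the 4 KD libraries, a log2 fold change of 0.63 (edgeR adjusted p 0.0224). Arfgap3, which triggers GTP hydrolysis on Arf proteins as COPI coats come off, went from 87.5 ± 15.6 to 142 ± 18.7 CPM, or 0.70 (edgeR adjusted p 0.0339). Ergic3, a receptor of the intermediate compartment between the endoplasmic reticulum and the Golgi, went from 39.5 ± 4.6 to 56.3 ± 4.49 CPM, or 0.51 (edgeR adjusted p 0.0439). In all 3 every KD library lay above every library of the other diets.

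The coats that form the vesicles showed no gene past the threshold in edgeR's test for KD against LFD. Of the 9 COPI genes, which shape vesicles for the return trip, 8 lay above 0, with a median of 0.22, and 4 had an unadjusted p below 0.05, with 3 passed by DESeq2 and 1 by limma-voom. Of the 13 COPII genes, which shape vesicles leaving the endoplasmic reticulum, 10 lay above 0, with a median of 0.35, and 5 had an unadjusted p below 0.05, with 1 passed by DESeq2 and 2 by limma-voom. All of these coat genes were higher on KD. Of all genes, 10.8% had such a p upward, and DESeq2 and limma-voom passed 3.66% and 3.42% as higher. None of the 5 members with the GASE core in the supplied promoter window passed for KD against LFD in edgeR, DESeq2 passed Mcfd2, Tmed3 and Uso1, and limma-voom passed Tmed3 and Uso1. The same 3 as in DESeq2 had an unadjusted p below 0.05 in edgeR. All were higher on KD, and the shares of all genes are those just given. Their log2 fold changes were -0.05 (Cog3), 0.39 (Kdelr3), 0.40 (Uso1), 0.58 (Tmed3) and 0.99 (Mcfd2).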

How the data were processed

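Polyadenylated RNA of mouse islets was sequenced from strand-specific libraries, per the labels' protocols. The authors deposited raw counts per Ensembl gene, 1 column per sample. The submitters' processing notes name cutadapt 1.16, STAR 2.7.9a, featureCounts 1.6.3, DESeq2 1.40.2 and the build GRCm39 (mm39). Not given in the sources used here: the annotation, the strand setting and the handling of multi-mapped reads. Symbols came from the supplied annotation, for 51948 of 56941 identifiers.

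Counts were analysed in edgeR 4.0.16 (R 4.3.3): filterByExpr by diet left 18548 genes, libraries were scaled by TMM, and all 9 libraries entered a robust quasi-likelihood fit with a mean per diet. Tests were two-sided. A standard error is the log2 change divided by the root of its F statistic. Mean log2 CPM used a prior count of 2. CPM per kilobase used exon unions of GENCODE M21, available for 97.3% of tested genes. No list was tested as a set. The procedure was tested on simulated data.

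The members, the role groups and the pathway and marker lists were chosen with earlier results of these data known. All 40 members are named. Values per library were given for members past the threshold, for the member with the lowest p in role groups without one, for the 2 largest decreases and, chosen after its values were seen, Mcfd2. Tmed7, given as the one member with an unadjusted p below 0.05 for HFD against LFD, was also chosen after its values were seen. Pathway genes past the threshold were named.

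Alternatives were DESeq2 size factors, DESeq2's Wald test (version 1.42.0), limma-voom (limma 3.58.1) with quality weights, TMM without acinar and hormone genes, no filter, at least 5 CPM in 3 libraries, a fit of only the diets compared, an acinar score as covariate, the replicate number as a block and the omission of each library. Library totals without TMM and a lymphocyte score as covariate were added after the data had been seen.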

Additional observations from a re-analysis of the deposited data

Results flagged for a closer look

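In the ketogenic group, where 4 libraries allow the check, the highest and the lowest library of each of the 40 members were set against the other 3. The gap from KD 4 to the next library was 0.83 of the group's range for Tmed4, at 134 against 95.3 CPM, and 0.842 for Trappc1, at 18.2 against 13.1 CPM, both just past the critical value of Dixon's test. KD 4 was also the KD library with the lowest share of acinar counts, 20.6%. Chance alone places about 1 in 20 groups past that value, and 2 of 40 members were.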

How the results depend on the processing

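Direction for KD against LFD was kept by the 6 genes that rose in all 20 alternatives, and Gorasp2 and Tmed10 passed in 14 of them. For library totals, direction was read relative to the median gene, which was at -0.59. Read against 0, 6 members of the whole set lay above it on those totals, and these need not be the genes that rose. Direction against 0 was therefore not kept on library totals for most of the set. The number of members past the threshold, 6, became 12 with DESeq2 and with limma-voom, 10 with the acinar score, 0 with the lymphocyte score, 0 on library totals (where the p tests zero change, not the median gene) and 0 to 7 when 1 library was left out. DESeq2 size factors, TMM without acinar and hormone genes, the stricter filter and the fit of only the diets compared each gave 4. For KD against HFD, 0 became 7 with DESeq2, 1 without a filter, and 0 to 5 when 1 library was left out. The 3 other Golgi genes became 11 with DESeq2, 9 with limma-voom, 6 without a filter, 1 with the stricter filter, 1 in the fit of only the diets compared, 0 with the lymphocyte score, 0 on library totals and 0 to 6 when 1 library was left out. The number of all genes past the threshold for KD against LFD, 764, became 1773 with DESeq2 and 1867 with limma-voom, and the members' counts were higher in the same fits. Where an omission left 1 HFD library, that library was assumed to vary like the others.

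The members' median log2 fold change for KD against LFD, 0.29, was 0.23 under the stricter filter and 0.41 with the lymphocyte score. For KD against HFD, 0.145, it was 0.086 under the stricter filter, 0.22 with the acinar score, 0.24 with the lymphocyte score and 0.128 to 0.204 when 1 library was left out. For HFD against LFD it was 0.16 with the lymphocyte score.

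With the replicate number as a block, 8 members passed for KD against LFD, 4 for KD against HFD and 7 other Golgi genes for KD against LFD, all higher, where 5.33% of all genes rose for KD against LFD and 7.32% for KD against HFD. Deviations of libraries with the same number correlated at -0.016 to 0.222 over 7 pairs, and 4 of 9 libraries correlated best with their own number, so the numbers were not taken to pair the samples. Under the replicate block Golgb1, Gosr1 and Trappc3 were at -0.039, -0.033 and -0.105.

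Small changes near 0 turned sign for KD against LFD, none of them past the threshold. The stricter filter put Golgb1, Gosr1 and Trappc3 at -0.043, -0.042 and -0.053. The acinar score put Golga1 at -0.044, Stx5a at -0.025, Trappc1 at 0.053 and Trappc4 at 0.16. The lymphocyte score put Golgb1 at -0.21, Gosr1 at -0.14, Tmed7 at -0.002, Trappc1 at 0.32, Trappc4 at 0.21 and Cog3 at 0.057. Limma-voom put Trappc4 at 0.049 and Cog4 at -0.025, and library totals put Trappc4 at 0.03 relative to the median gene. Trappc3 was at -0.004 with TMM without acinar and hormone genes and at -0.007 in the fit of only the diets compared. When 1 library was left out, Golgb1 ran from -0.049 to 0.10, Gosr1 from -0.04 to 0.079, Trappc3 from -0.10 to 0.10 and Trappc4 from -0.12 to 0.038. The cause of these shifts was not tested.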
